A study of Mus musculus with 57 samples.

Results

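Integrins are the cell surface receptors with which microglia hold on to matrix and to other cells, and 10 genes of this kind were followed here: the integrin chains Itgam, Itgb2, Itgal, Itga4, Itga6, Itga9, Itgav, Itgb1 and Itgb5, and the integrin ligand Icam1. They were chosen by symbol, and 10 of 10 were found in both count tables and passed the filter on low counts. That filter kept 31709 of 50565 genes in one experiment and 15857 of 53278 in the other.

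An integrin is a pair of an alpha and a beta chain, and the pairing decides what it binds. Itgam (CD11b) and Itgal (CD11a) each pair with Itgb2 (CD18) to give the leukocyte integrins Mac-1 and LFA-1, which bind the adhesion molecule ICAM-1, and Mac-1 also binds complement fragments on material to be engulfed. Itga4, Itga6 and Itga9 pair with Itgb1, for VCAM-1 and fibronectin, for laminins, and for tenascin and osteopontin respectively. Itgav with Itgb5 binds vitronectin and similar proteins that carry an arginine-glycine-aspartate stretch, and it takes part in the uptake of dying cells. Microglia are known for abundant Itgam, Itgb2 and Itgb5, and myeloid cells raise ICAM-1 when exposed to bacterial products.

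RNA came from CD11b-positive cells of the brain of wild-type (WT) mice and of littermates deficient in P2RY12 (KO), a nucleotide receptor of resting microglia. The sex experiment holds 18 adult animals, with 4 WT and 5 KO males and 4 WT and 5 KO females, and no injection is named. The LPS experiment holds 33 libraries of WT and KO animals labelled LPS, for lipopolysaccharide given into the peritoneum at 1 mg/kg, or ns, a term that the labels leave undefined. It was analysed as 6 WT ns, 6 WT LPS, 8 KO ns and 8 KO LPS samples, after WT LPS 8 and WT LPS 9, whose counts were nearly equal, were summed as 1 sample, and with 4 WT libraries of library number 2 (2 ns and 2 LPS) shown apart. The labels give neither the time after injection nor, for this experiment, age, sex or whether libraries came from separate animals, so p-values measure the spread between samples. Because the cells were isolated by CD11b, Itgam values describe cells already selected for its protein.

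Library totals ran from 58.54 to 318.5 M counts in the sex experiment and from 15.91 to 168.4 M in the LPS experiment. P2ry12, the targeted gene, was 10.7-fold lower in KO than in WT animals of the sex experiment, with no overlap. In the LPS experiment P2ry12 was 585.2 to 1243 CPM (the usual counts relative to library size, with TMM scaling for composition) in KO ns against 3516 to 5406 CPM in the 6 WT ns samples. In the libraries of number 2, however, it was 481 and 927.4 CPM in WT ns 1 and WT ns 5, and 4461 and 12150 CPM in WT LPS 1 and WT LPS 6. Saa3, an acute-phase gene, stood at 1781 and 2491 CPM in the former pair and at 1.592 and 3.209 CPM in the latter, whereas the other WT libraries had 1.523 to 64.35 CPM at ns and 1418 to 9720 CPM with LPS. These 4 libraries therefore go against their labels in both genes, and WT results below are given without them, with the log2 changes of every library as labelled given beside. Markers of microglia summed to 18900 to 56700 CPM in the LPS experiment and 24600 to 40200 CPM in the sex experiment, outside the number 2 libraries. Neutrophil markers summed to 1080 to 19800 and 1480 to 50800 CPM, and neutrophils also carry Itgam, Itgal and Itgb2. In bulk samples fewer cells of a type and less RNA per cell cannot be told apart.

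The promoters shown are those of Icam1 and Itgam, the 2 members called higher with LPS in both genotypes, and serve to identify these genes. Entries from RefSeq (build GRCm38.p6) were present for 7 of the 10 members. Each window is the 250 bases before the gene's start, on the plus strand, 5′ to 3′, and capitals mark an NF-kappaB-like pattern searched on both strands, GGG and then CC with 5 bases of any kind between them. Icam1 lies at chr9:21015690-21015939, and its match is on the other strand, first base 120 bases before the start. Itgam lies at chr7:128062390-128062639, with 2 overlapping matches whose first bases are 140 and 139 bases before the start.
Icam1: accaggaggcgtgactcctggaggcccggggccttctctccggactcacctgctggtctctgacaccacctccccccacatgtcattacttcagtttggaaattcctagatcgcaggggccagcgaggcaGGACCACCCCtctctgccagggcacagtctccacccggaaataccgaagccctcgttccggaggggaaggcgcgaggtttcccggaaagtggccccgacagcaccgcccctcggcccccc
Itgam: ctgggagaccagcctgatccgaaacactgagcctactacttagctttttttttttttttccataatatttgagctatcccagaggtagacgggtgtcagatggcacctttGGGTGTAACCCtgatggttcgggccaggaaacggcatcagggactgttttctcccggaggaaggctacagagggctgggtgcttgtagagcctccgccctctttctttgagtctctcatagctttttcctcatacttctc
The pattern is common: 45.8% of 32851 promoters searched over the same length held it, so a match describes the letters and not a bound site. Itgav held 1 such match and Itgb5 held 2, while none was found in these windows of Itga4, Itga9 and Itgb1. An AP-1-like TGANTCA (in 6.75% of all promoters) and an interferon-response-like pair of TTTC with 2 bases of any kind between (2.98%) were found in 0 of the 7, and a PU.1-like GAGGAAGT (2.44%) in Itgav alone.

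The members covered a wide range of levels. Per kilobase of annotated exon, on the CPM scale and in the 6 WT ns samples of the LPS experiment, Itgb5 was highest at 513 ± 108 (SD), followed by Itgb2 at 264 ± 28.9. Itgam at 99.2 ± 6.67 and Itgb1 at 84 ± 11.7 came next, and their ranges overlapped. Itga6 stood at 48 ± 6.35, clear of its neighbours, and Icam1 at 31 ± 4.25, with a lowest sample of 26.9 that lay below the highest Itgal sample, 27.2. Itga9 (20.6 ± 2.8), Itgal (17.9 ± 7.18) and Itgav (15.4 ± 2.16) overlapped one another, and Itga4 was lowest at 4.29 ± 1.74. With LPS the order at the top was not resolved: Itgb2 reached 364 ± 102 and Itgb5 319 ± 101 in WT, and 386 ± 72.8 and 398 ± 138 in KO, on the same per-kilobase scale. Itgam with LPS was 183 ± 33.5 in WT and 188 ± 25.7 in KO. Whether introns were counted in this table is not given in the sources used here, so these per-length values order genes only roughly.

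Chains of the leukocyte integrins and the gene of their ligand rose with LPS. Itgam and Icam1 rose in WT and in KO, Itgb2 and Itgal rose in KO, and Itga9 fell in both genotypes. Marker lists moved beside them: 8 of 12 microglia markers were called lower in each genotype, and the median monocyte sum was 255 CPM in KO ns and 627 CPM in KO LPS, and 545 and 775 CPM in WT. Of 10 monocyte markers 1 was called higher and 1 lower in each genotype, and their part in the members' changes was not tested. In KO, 4 members were called higher and 1 lower of 10, where 13.1% of all tested genes were called higher, 15.2% lower and 28.3% in all by edgeR's quasi-likelihood test at an adjusted p under 0.05. In WT, 2 members were called higher and 1 lower, where 14.8% of all genes were called higher, 15.5% lower and 30.3% in all. The median log2 change was -0.04 over the 10 members and -0.02 over all genes in KO, and 0.23 and -0.01 in WT. Without the libraries of number 4, Itgam, Itgb2 and Icam1 passed in KO and Itgam alone in WT. Of all genes, 18.4% passed in KO and 17.3% in WT at that setting. The lost calls kept their direction: Itgal 1.1 ± 0.42 (adjusted p = 0.0741) and Itga9 -0.84 ± 0.32 (0.0716) in KO, and Icam1 1.16 ± 0.42 (0.0641) and Itga9 -1.02 ± 0.36 (0.0554) in WT.

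Itgam at ns was 435.1, 503.2 and 532.3 CPM (lowest, median, highest) in WT and 291.2, 511.3 and 522 CPM in KO. With LPS Itgam was 708.3, 916 and 1177 CPM in WT and 725.6, 920.6 and 1097 CPM in KO. All LPS samples lay above all ns samples of their genotype. Itgam was 1.84-fold higher in WT (log2 0.88 ± 0.16 SE, adjusted p = 0.000107) and 1.98-fold higher in KO (0.98 ± 0.14, adjusted p = 2.54e-06). Icam1, whose product is the surface ligand of Mac-1 and LFA-1, was 117.3, 132.1 and 167.3 CPM in WT ns and 268.2, 280.5 and 398.7 CPM in WT LPS. In KO, Icam1 went from 39.53, 134.8 and 164.2 CPM at ns to 51.72, 293 and 373.3 CPM with LPS. The WT groups did not overlap, and in KO the overlap came from KO LPS 5 alone, since the other KO LPS samples had 249.1 to 373.3 CPM. Icam1 was 2.27-fold higher in WT (1.18 ± 0.33, adjusted p = 0.0066) and 2.35-fold higher in KO (1.23 ± 0.28, adjusted p = 0.00133). Endothelial markers, which belong to another cell type that carries ICAM-1, summed to 56.3 to 68.5 CPM in WT ns and 16.3 to 41.2 CPM in WT LPS, and to 69.7 to 110 CPM in KO ns and 26.2 to 71.4 CPM in KO LPS. The endothelial ranges overlapped in KO, and their part in the Icam1 values was not tested.

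Itgb2, the beta chain shared by Mac-1 and LFA-1, was 685.4, 818.7 and 899.6 CPM in WT ns and 502.2, 1213 and 1333 CPM in WT LPS. In KO it was 271, 696.4 and 775.5 CPM at ns and 657.2, 1239 and 1369 CPM with LPS. In each genotype a single LPS sample, WT LPS 7 and KO LPS 5, fell within or below the ns range, and all others exceeded it. Itgb2 rose 1.8-fold in KO (0.84 ± 0.19 log2, adjusted p = 0.00109), while in WT the difference was 0.45 ± 0.22 (adjusted p = 0.12). Itgal, the alpha chain of LFA-1, was 12.82, 49.44 and 96.13 CPM in KO ns and 54.83, 126.1 and 162.9 CPM in KO LPS. Those groups overlapped, and the 2.23-fold rise passed the test (1.16 ± 0.32, adjusted p = 0.00722). In WT, Itgal was 68.65, 100.2 and 178.8 CPM at ns and 79.07, 141.6 and 231.7 CPM with LPS, a log2 difference of 0.35 ± 0.37 (adjusted p = 0.515). Neutrophil markers summed to 1080 to 10400 CPM in KO ns and 2030 to 4930 CPM in KO LPS, and to 1850 to 19800 CPM in WT ns and 2300 to 13700 CPM in WT LPS. Without the samples above 8000 CPM, a threshold set after the values were seen, Itgal in WT was called higher at 0.93 ± 0.27 (adjusted p = 0.0146, up to 0.873 over all alternatives) and Itgb2 at 0.69 ± 0.14 (adjusted p = 0.000881, up to 0.816). In KO the same samples left out gave 1.34 ± 0.24 for Itgal and 0.78 ± 0.12 for Itgb2. The share of all genes passing at this setting was 26.7% for the WT comparison and 31.9% for the KO comparison. The samples left out included WT LPS 7 and KO ns 6, whose mitochondrial shares of counts were also high, at 6.74% and 8.55%. The part of neutrophil content apart from that share was therefore not tested.

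**Figure D1:**
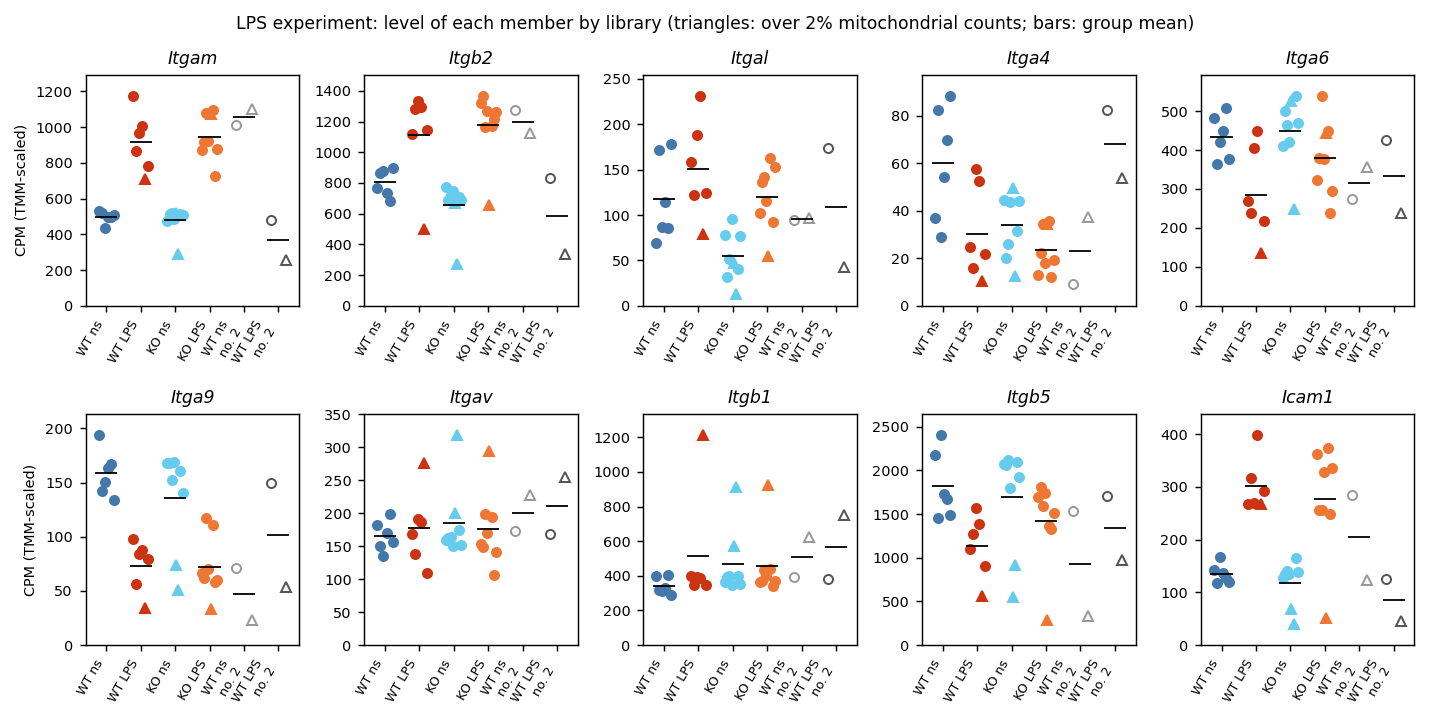
CPM of each member in every sample of the LPS experiment (linear axis from 0), by genotype and treatment, with the group mean as a bar, triangles for libraries with over 2% mitochondrial counts and open grey symbols for the WT libraries of number 2. Itgam separates LPS (708.3 to 1177 CPM in WT) from ns (435.1 to 532.3 CPM), and the number 2 libraries show the opposite order.

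Among the beta-1 partners, Itga9 fell. It was 133.5, 157.2 and 194 CPM in WT ns against 34.12, 81.89 and 98.02 CPM in WT LPS, with no overlap. In KO it went from 50.92, 156.5 and 169.3 CPM to 33.28, 64.36 and 116.9 CPM, and the groups overlapped. Itga9 was 2.18-fold lower in WT (log2 change -1.13 ± 0.30, adjusted p = 0.00481) and 1.83-fold lower in KO (-0.88 ± 0.26, adjusted p = 0.0106). In the sex experiment's annotation Itga9 shares its span with Gm10157, Gm39454 and Gm51695, whose counts there came to 11.6% of those of Itga9. Itga4, the VCAM-1 receptor chain, had medians of 61.77 CPM in WT ns and 23.09 CPM in WT LPS, and of 37.58 and 20.57 CPM in KO. Its groups overlapped in both genotypes, and the log2 differences of -0.96 ± 0.41 in WT (adjusted p = 0.081) and -0.53 ± 0.36 in KO (adjusted p = 0.299) did not pass.

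Itga6, a laminin receptor chain, had medians of 434.4 CPM in WT ns and 253.9 CPM in WT LPS, and of 466.5 and 377.6 CPM in KO. The differences of -0.60 ± 0.24 in WT (adjusted p = 0.0541) and -0.24 ± 0.21 in KO (adjusted p = 0.44) did not pass. In WT, Itga6 was called lower in 6 of 20 alternatives, with adjusted p from 0.00398 to 0.469 and log2 changes from -0.86 to -0.27 over all of them. Itgb1, the shared beta chain of these receptors, had medians between 326.1 CPM in WT ns and 394.8 CPM in KO ns. Its log2 difference with LPS was 0.52 ± 0.27 in WT (adjusted p = 0.153) and -0.02 ± 0.24 in KO (adjusted p = 0.959). The WT mean rests on WT LPS 7, at 1214 CPM, where the other WT LPS samples had 347.1 to 399.7 CPM. Without the libraries of high mitochondrial share described below, the Itgb1 difference in WT was 0.16 ± 0.09.

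Itgav and Itgb5, the vitronectin receptor chains, were not called. Itgav medians lay between 161.6 CPM in KO LPS and 177.2 CPM in WT LPS, with LPS differences of 0.10 ± 0.21 in WT and -0.06 ± 0.18 in KO. Itgb5, the most abundant member at ns, had medians of 1702 CPM in WT ns, 1185 CPM in WT LPS, 1992 CPM in KO ns and 1548 CPM in KO LPS. Its differences were -0.70 ± 0.32 in WT (adjusted p = 0.0986) and -0.26 ± 0.28 in KO (adjusted p = 0.541).

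Several of these values differed in libraries with a high share of mitochondrial counts, and the cause was not tested. Mitochondrially encoded genes held 2.69% to 8.55% of counts in WT LPS 7, KO ns 5, KO ns 6, KO LPS 5 and the number 2 libraries WT ns 5 and WT LPS 6, against 0.787% to 1.81% in the other 26 samples. These libraries all belong to library set 2, one of 2 sets by the prefix of the library name. Between the 2 such KO ns libraries and the other 6, log2 level differed by -1.5 for Itgb5, -1.43 for Icam1, -1.38 for Itga9, -1.24 for Itgal and -0.76 for Itgb2, and by 0.94 for Itgb1 and 0.66 for Itgav. Itga4, Itgam and Itga6 differed by -0.42, -0.37 and -0.36. Over 15488 genes that difference had r = -0.547 with the GC content of the transcript, given as a description across genes of the same libraries. Transcript GC was 57% for Itgb5, 55.4% for Icam1, 53.2% for Itgal, 53.1% for Itgb2 and 51.6% for Itga9. It was 48.9% for Itgam and Itga6, 44.8% for Itgb1 and 43.5% for Itgav, and Itga4, which was lower in these libraries, had the lowest GC at 41.1%.

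Without those libraries, a comparison added after the values were seen, 6 members passed in KO and 5 in WT, where 55% and 54.6% of all genes did. Itgb2 in WT then rose by 0.64 ± 0.07 on the log2 scale (adjusted p = 1.03e-07, which ranged up to 0.816 over all alternatives for this gene). Itgb5 was then lower in both genotypes, with log2 changes of -0.53 in WT and -0.31 in KO. Itgam (0.98 in WT, 0.92 in KO), Icam1 (1.23 and 1.17), Itga9 (-0.93 and -1.0) and, in KO, Itgal (1.06) passed as before. Within set 1 alone the log2 changes in KO were 0.95 for Itgam, 0.83 for Itgb2, 0.97 for Itgal, 1.19 for Icam1 and -1.03 for Itga9, and all 5 passed (44.9% of all genes did). In set 2 alone they were 1.12, 0.94, 1.44, 1.37 and -0.62, and 0 members passed by edgeR, where 4.65% of all genes did. In WT, Itgam, Icam1 and Itga9 changed by 1.04, 1.02 and -1.0 in set 1 and by 0.77, 1.36 and -1.14 in set 2. In set 2 edgeR called 0 members in WT (3.62% of all genes), and in set 1 it called 5 (42.6%). The sets also differed in sex-linked transcripts: Ddx3y was 94 to 141 CPM in set 1 and at most 0.503 CPM in set 2. Xist was 0.7 to 2.15 CPM in set 1 and 576 to 2530 CPM in set 2. These are the patterns of males in set 1 and of females in set 2. Differences between the sets therefore cannot be told apart from differences between the sexes.

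The WT libraries of number 2 ran the other way. Itgam was 1010 and 1100 CPM in WT ns 1 and WT ns 5, and 477.6 and 254.8 CPM in WT LPS 1 and WT LPS 6. Itgb2 was 1273 and 1126 CPM in the ns pair and 833.3 and 339.1 CPM in the LPS pair. Icam1 was 284.9 and 123.6 CPM against 124.9 and 46.18 CPM, and Itga9 71.31 and 22.92 CPM against 149.7 and 53.93 CPM. Taking WT ns 1 with WT LPS 1 and WT ns 5 with WT LPS 6, which share a library set, the order was in all 4 genes opposite to that of the other WT samples. Of the members without a call in WT, Itgal was 94.4 and 97.11 CPM in the ns pair and 173.7 and 43.2 CPM in the LPS pair, and Itga4 was 9.184 and 37.24 against 82.28 and 53.77 CPM. Itga6 was 275 and 355.7 against 426.5 and 237.5 CPM, and Itgb5 1532 and 327.9 against 1711 and 974.8 CPM. Itgal and Itga6 thus ran in different directions in the 2 sets. Itgav was 173.6 and 228 against 168.3 and 254.4 CPM, and Itgb1 was 393.2 and 623.2 against 378.9 and 749 CPM. With every library in its labelled group, the WT log2 changes were 0.29 ± 0.23 for Itgam (adjusted p = 0.464), 0.73 ± 0.34 for Icam1 (0.196) and -0.73 ± 0.31 for Itga9 (0.177), and 0 of all 15857 genes were called in WT. In that fit the WT changes of the other members were 0.10 ± 0.22 for Itgb2, 0.30 ± 0.32 for Itgal, -0.33 ± 0.40 for Itga4, -0.45 ± 0.21 for Itga6, 0.40 ± 0.24 for Itgb1, -0.43 ± 0.30 for Itgb5 and 0.09 ± 0.19 for Itgav. The KO groups hold none of these libraries, but the model and its spread estimate are shared. In that fit 5 members were called in KO too, against 22.3% of all genes, where 28.3% were called with number 2 apart.

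**Figure D2:**
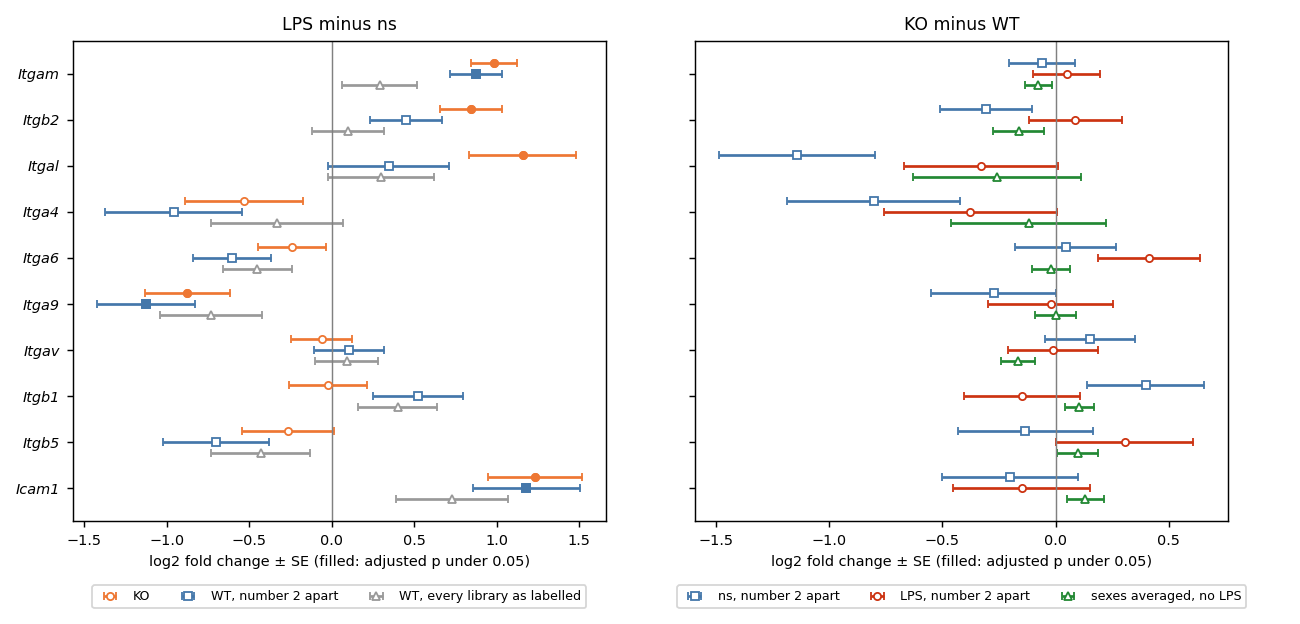
Log2 change of each member with its standard error, for LPS minus ns in KO and in WT (left, also with every library as labelled) and for KO minus WT at ns, after LPS and averaged over the sexes (right), with filled points where the adjusted p is under 0.05. Itgam and Icam1 lie right of 0 with LPS in both genotypes, Itga9 lies left, and 0 members are filled for KO minus WT.

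KO and WT samples of the LPS experiment differed past the test in 0 of the 10 members. At ns, edgeR called 0 members and 0.0883% of all genes, with 2 members at an unadjusted p under 0.05, and DESeq2 also called 0 members. The larger of these was Itgal, whose median was 49.44 CPM in KO ns and 100.2 CPM in WT ns, with overlapping ranges. Its log2 difference was -1.14 ± 0.34 (95% interval -1.81 to -0.47, edgeR unadjusted p = 0.00245, adjusted p = 0.415), and -1.07 ± 0.32 with every library as labelled. Itga4 followed at -0.80 ± 0.38 (interval -1.55 to -0.05, adjusted p = 0.552). Of 12 neutrophil markers 0 were higher in KO ns, and 0 were called. Their sum overlapped, with a median of 4240 CPM in WT ns (1850 to 19800) and 2490 CPM in KO ns (1080 to 10400). The monocyte list had 0 of 10 markers higher in KO ns, and the T and NK cell list 1 of 7, with 0 called in either. Their part in Itgal and Itga4 was not tested. Without the samples whose neutrophil sum exceeded 8000 CPM, Itgal differed by -0.86 ± 0.27 (adjusted p = 0.75) and Itga4 by -0.52 ± 0.41 (adjusted p = 0.981). The other 8 members differed by between -0.30 for Itgb2 and 0.40 for Itgb1 at ns, and the interval for Itgam ran from -0.35 to 0.23. With every library as labelled, however, Itgam differed at ns by -0.41 ± 0.23 (adjusted p = 0.63), outside that interval, and Itgb2 by -0.47 ± 0.22 (adjusted p = 0.566). In that fit Itga4 differed by -0.56 ± 0.40 and Icam1 by -0.36 ± 0.34, and the other 5 members by between 0.02 for Itga9 and 0.25 for Itgb1. With number 2 apart, KO ns 5 and KO ns 6 alone among the ns samples compared had over 2% mitochondrial counts. Itgal and Itgb2 were lower and Itgb1 higher in them, as given above. Without libraries of that kind 0 members were called at ns, and 0.364% of all genes. Over all alternatives Itgal ran from -1.44 to -0.76, Itgb2 from -0.47 to -0.13 and Itgb1 from 0.09 to 0.74.

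After LPS, edgeR called 0 members between KO and WT and 0.0946% of all genes, with 0 members at an unadjusted p under 0.05, and DESeq2 called 0. The differences ran from -0.38 ± 0.38 for Itga4 to 0.41 ± 0.22 for Itga6 (interval -0.03 to 0.85, adjusted p = 0.869). With every library as labelled, Itga4 differed by -0.76 ± 0.40 (adjusted p = 0.715), and the other 9 members by between -0.21 for Itgal and 0.36 for Itga6. For Icam1 the interval was -0.74 to 0.44 and for Itgam -0.24 to 0.34. Whether the LPS response differed with genotype was tested by the interaction, in which edgeR and DESeq2 called 0 members, with 0 at an unadjusted p under 0.05, and edgeR called 0% of all genes. The largest member term was Itgal at 0.81 ± 0.49 (interval -0.14 to 1.77, adjusted p = 0.754), so the rises of Itgal and Itgb2 that passed in KO alone were not shown to be particular to KO. For Itgb2 the term was 0.39 ± 0.29 (interval -0.17 to 0.96). For Itgam it was 0.11 ± 0.21 (interval -0.30 to 0.52). With every library as labelled these terms were 0.75 ± 0.32 for Itgb2 (adjusted p = 0.438) and 0.70 ± 0.33 for Itgam (adjusted p = 0.457).

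In the sex experiment 0 members were called between KO and WT when the sexes were averaged (0.432% of all genes were), nor in males (0.00946%) or females (0.164%), by edgeR or by DESeq2. At an unadjusted p under 0.05 there was 1 member averaged, 0 in males and 1 in females, Itgav each time. The sex-by-genotype interaction (0% of all genes) and the female against male comparison (0.861%) also called 0 members, with 0 at an unadjusted p under 0.05. Averaged over sexes, members other than Itgal differed by between -0.17 for Itgav and 0.13 for Icam1 on the log2 scale, and the interval was -0.19 to 0.04 for Itgam and -0.03 to 0.29 for Icam1. For Itgal the interval was wider, from -0.98 to 0.47.

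Itgav, the alpha chain of the vitronectin receptors, lay in every KO animal below 3 of the 4 WT animals of the same sex. Male WT 5, 1, 3 and 4 had 172.5, 237.5, 228.2 and 227 CPM of Itgav, and male KO 1 to 5 had 213.2, 199.5, 202.2, 207.5 and 194.1 CPM. Female WT 1, 2, 3 and 5 had 210.4, 156.4, 244 and 228.1 CPM, and female KO 1 to 5 had 169.3, 175, 198.3, 167 and 175.6 CPM. In each sex 1 WT animal lay below all KO animals and the other 3 above them. The log2 difference was -0.17 ± 0.08 averaged (adjusted p = 0.543), -0.24 ± 0.11 in females (adjusted p = 0.869) and -0.09 ± 0.11 in males (adjusted p = 0.97). The low WT animals, male WT 5 and female WT 2, were also those with the highest neutrophil sums, 50750 and 30220 CPM, against 1480 to 8590 CPM in the other animals. Without these 2 animals, a threshold set after the values were seen, Itgav was called lower in KO averaged over sexes (-0.27 ± 0.05, adjusted p = 0.00681, with 0.969% of all genes called) and in females (-0.36 ± 0.07, adjusted p = 0.0152, with 0.602%). Over all alternatives for Itgav the adjusted p ran from 0.00681 to 0.718 averaged and from 0.0152 to 1 in females. In males it was -0.18 ± 0.07 (adjusted p = 1) and the interaction was -0.18 ± 0.10, so a difference between the sexes was not shown. In the LPS experiment Itgav at ns was 0.15 ± 0.20 higher in KO (interval -0.24 to 0.54), the other direction. Over the alternatives that difference ran from -0.07 to 0.30, and it kept its sign in 17 of 20. Medians per kilobase of exon were 15.2 in both WT ns and KO ns. KO ns 6, with a mitochondrial share of 8.55%, stood at 318.8 CPM, against 149.9 to 200.9 CPM in the other KO ns samples. The cause of its high value was not tested.

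**Figure D3:**
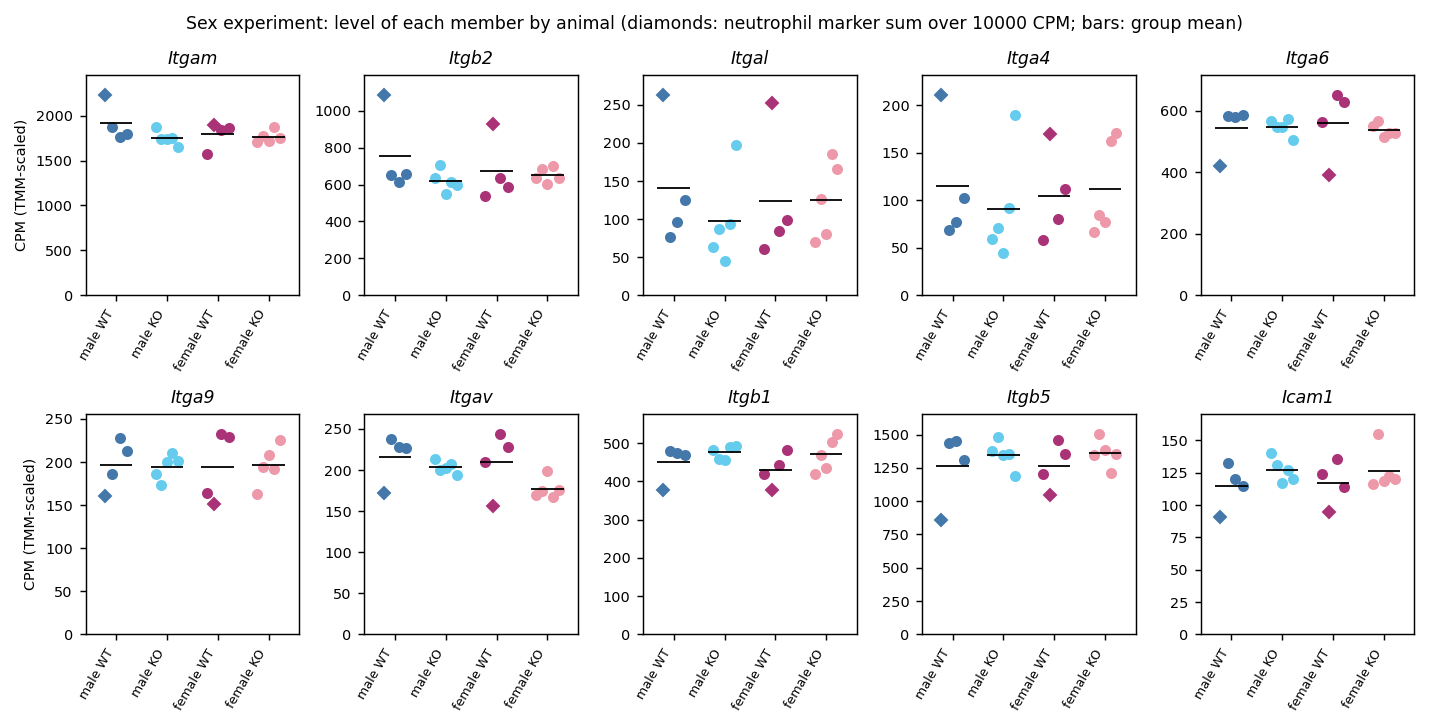
CPM of each member in the 18 animals of the sex experiment, by sex and genotype (linear axis from 0), with the group mean as a bar and diamonds for the 2 WT animals whose neutrophil markers summed to over 10000 CPM. Those animals are lowest for Itgav among WT (172.5 and 156.4 CPM) and highest for Itgal and Itgb2.

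The same 2 animals stood out for the leukocyte chains. Itgal was 263.6 CPM in male WT 5 and 253.2 CPM in female WT 2, against 45.26 to 197.6 CPM in the other 16 animals. Itgb2 was 1089 and 928.5 CPM there, against 538.9 to 705.3 CPM in the others. Itga4 was highest in male WT 5 at 211.4 CPM, and at 169.4 CPM in female WT 2 it lay within the range of the KO animals. Among KO animals Itga4 was highest in male KO 5, female KO 5 and female KO 4, at 189.5, 170.7 and 162.4 CPM. T and NK cell markers summed to 194.1 CPM in female KO 4, 347.4 CPM in female KO 5 and 97.07 CPM in male KO 5, and their part in Itga4 and Itgal was not tested. Without the 2 WT animals the averaged differences were 0.30 ± 0.33 for Itgal, 0.28 ± 0.34 for Itga4 and 0.05 ± 0.06 for Itgb2, all with adjusted p = 1.

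**Figure D4:**
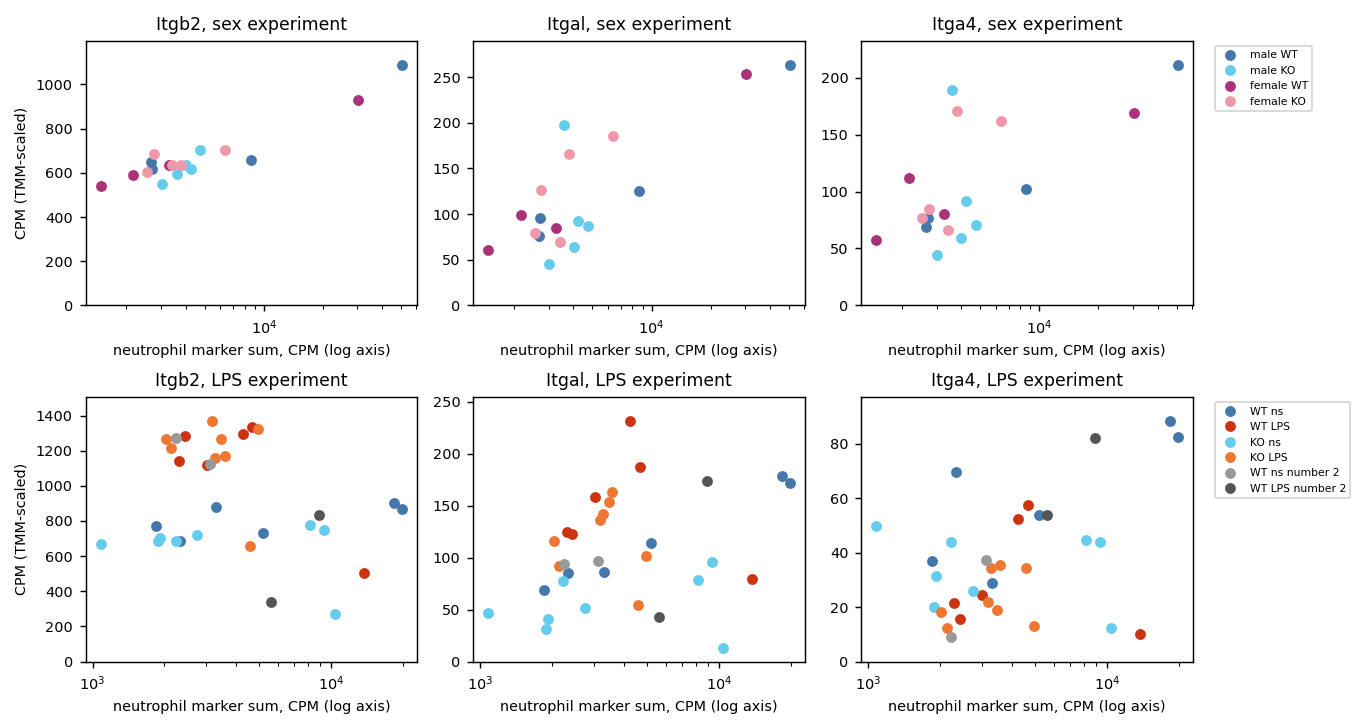
Summed CPM of 12 neutrophil markers (x, log axis) against CPM of Itgb2, Itgal and Itga4 (y) in each sample, with the sex experiment above and the LPS experiment below. In the sex experiment the points at 50750 and 30220 CPM are the WT animals with the highest Itgb2 and Itgal of all animals.

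Other genes of integrin function were read from lists of 18 further integrin chains, 28 ligands and 41 genes of integrin activation and adaptors, and their counts stand beside the same over all genes given above. Of the chains, 15 were tested with LPS, and 1 rose and 5 fell in KO (median log2 change -0.45), while 1 rose and 6 fell in WT (median -0.84). The riser was Itga5, the fibronectin receptor chain, by 2.19 ± 0.46 in KO (adjusted p = 0.000531) and 1.92 ± 0.52 in WT (adjusted p = 0.00614). Levels of Itga5 were 45.59 to 59.63 CPM at ns and 60.64 to 291.7 CPM with LPS in WT, and 4.173 to 46.39 and 12.08 to 198.8 CPM in KO. The call on Itga5 was lost in 1 of 20 alternatives in KO (library set 2 alone) and in 3 of 20 in WT, among them that without number 4. The collagen receptor chains Itga1 and Itga2 fell in both genotypes, with log2 changes of -1.57 in KO and -1.89 in WT for Itga1 and of -1.79 and -1.74 for Itga2. The Itga1 call was lost in 11 of 19 alternatives in KO and 9 of 19 in WT, and that on Itga2 in 4 of 19 and 6 of 19.

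Of 18 ligands tested, 5 rose and 3 fell in KO and 4 rose and 2 fell in WT. Vcam1, the ligand of the receptor of Itga4 and Itgb1, rose by 2.07 ± 0.33 in WT (adjusted p = 2.21e-05). In KO 5 ligands were called higher and the rule named up to 4, which left out Vcam1. Its KO value and call are not given here, so no lack of a rise in KO is implied. Of the 18 ligands 0 were called in the interaction, so its rise was not shown to be particular to WT. Spp1 (osteopontin), a ligand of receptors of Itga9, Itga4 and Itgav, rose by 2.04 ± 0.46 in KO and 2.78 ± 0.54 in WT. The junctional ligands Jam2 and Jam3 fell, with changes of -1.35 in KO and -1.82 in WT for Jam2 and of -1.62 and -1.33 for Jam3. Of 38 activation and adaptor genes, 7 rose and 3 fell in KO and 7 rose and 4 fell in WT. Fgr, a Src-family kinase that acts below the beta-2 integrins, rose by 2.92 ± 0.46 in KO and 2.32 ± 0.52 in WT. The talin gene Tln2 fell, with changes of -1.17 in KO and -1.98 in WT, and so did the adaptor gene Lims1, at -0.80 and -0.76. In library set 2 alone the calls on Spp1, Jam2, Jam3, Tln2 and Lims1 were lost in both genotypes, and those on Vcam1 and Fgr in WT. Over all genes named by the rule for these lists, 56 of 366 alternative results lost the call in KO and 73 of 374 in WT. With every library as labelled, 0 genes of any of the 3 lists were called in WT, as of all genes. Between KO and WT, and in both interactions, 0 genes of the 3 lists were called in either experiment.

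**Figure D5:**
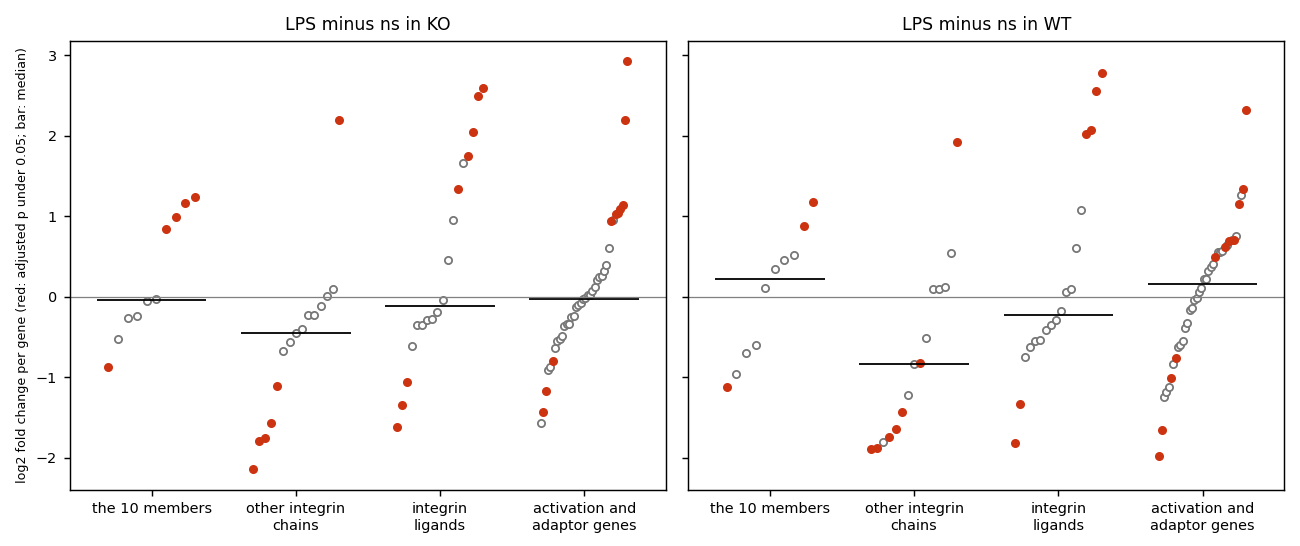
Log2 change with LPS of the 10 members and of the tested genes of each list, in KO (left) and WT (right), with a bar at the median and red filled points where the adjusted p is under 0.05. Most other integrin chains lie below 0 (median -0.45 in KO and -0.84 in WT), and Itga5 is their filled point above it.

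Across libraries the members did not move as one. Pearson's r of log2 level over the 32 samples of the LPS experiment was 0.80 for Itgam with Itgb2 and 0.78 for Itgb2 with Itgal, and 0.81 and 0.73 over the 18 animals. Itgal and Itga4 were close in the sex experiment (0.96) and less so with LPS (0.30), and Itgb2 with Icam1 turned from 0.83 to -0.59. Points share libraries, depth and group, so these are descriptions. Among 10407 candidate genes, the nearest to Itgb2 was Cs (0.98 over the LPS samples, 0.91 over the animals), to Itgal Noct (0.92 and 0.78), to Itga4 Mndal (0.93 and 0.88) and to Itgb5 Abi3 (0.97 and 0.87). For Itgam, Ganab came first (0.96) and was at 0.39 over the animals, and for Icam1 it was Sec61a1 (0.97 and 0.41). The gene nearest to Itga9 was Plxna3 (0.96 and 0.59), and Itga6 lay nearest to Trp53bp1 (0.91 and 0.42). Itgb1 with Sar1a reached 0.98 and 0.35, and Itgav with Hikeshi 0.93 and -0.02.

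The members lie on several chromosomes of GRCm39, all on the plus strand. Itgal and Itgam share chromosome 7, at 126895404 to 126934309 and 127661812 to 127717663. Itga6 (71617236 to 71688761), Itga4 (79084767 to 79163458) and Itgav (83554796 to 83637261) lie on chromosome 2. Icam1 (20927236 to 20940110) and Itga9 (118435777 to 118730071) lie on chromosome 9. Itgb1 lies on chromosome 8 (129412135 to 129460060), Itgb2 on chromosome 10 (77366164 to 77401542) and Itgb5 on chromosome 16 (33650021 to 33769708). In the sex experiment whole gene spans were counted, introns included. Itga4 there overlaps Gm39866 and the minus-strand gene Cerkl, whose counts came to 11.4% of those of Itga4, and reads of overlapping genes cannot be told apart without strand.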

How the data were processed

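Each experiment came as 1 table that the authors deposited, of raw counts by gene in whole numbers. Per the file headers, the sex experiment was counted on GRCm39. The submitters' processing notes name FastQC, STAR 2.6.1, featureCounts of Subread, and DESeq2, with no settings. RNA was polyadenylated, per the labels. Labels list 6 repeat libraries without a column, not analysed here. Genes were filtered with filterByExpr, TMM-scaled and tested with edgeR 4.0.16 (quasi-likelihood F test, robust, R 4.3.3), 1 model per experiment with a mean per group and, in the LPS experiment, the library set as covariate. P-values were adjusted by Benjamini-Hochberg over all tested genes. The fits were tried on simulated counts. These varied less between samples than the real counts and held no outlying libraries, so the trial does not cover such conditions. Alternatives were DESeq2 1.42.0, other filters and scalings, a replicate block, and samples left out. Counts of the summed pair, WT LPS 8 and 9, had a chi-square per degree of freedom of 1.86, against 8.32 for the next closest pair. Setting WT number 2 apart departs from the labelled groups. Members and gene lists were chosen with earlier results of these data known. Likeness used genes of at least 5 CPM, and the first of 3 is given. Of each list, the called genes with the largest changes, up to 4 per direction and contrast, could be named. Exon lengths came from a GRCm38 annotation.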

Additional observations from a re-analysis of the deposited data

Results flagged for a closer look

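In 18 of 80 groups of 4 to 10 samples, 1 sample of a member lay farther from the others than Dixon's 95% criterion allows, where chance alone gives about 1 in 20. KO ns 6 was low for Itgam (291.2 CPM, others 477.1 to 522), Itgb2 (271, others 670.3 to 775.5) and Itga6 (248.5, others 411.4 to 539.9). It was high for Itgav (318.8, others 149.9 to 200.9) and Itgb1 (910.4, others 347.3 to 571.8). KO LPS 5 was low for Itgb2 (657.2 CPM, others 1161 to 1369), Itgb5 (281.3, others 1332 to 1806) and Icam1 (51.72, others 249.1 to 373.3), and high for Itgb1 (923.1, others 343.1 to 436.4). WT LPS 7 was low for Itgb2 (502.2, others 1117 to 1333) and high for Itgb1 (1214, others 347.1 to 399.7). These 3 libraries are among those with over 2% mitochondrial counts.

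Male WT 5 was high for Itgb2 (1089 CPM, others 615.8 to 659.2) and low for Itga6 (421.3, others 579.3 to 585.8), Itgav (172.5, others 227 to 237.5) and Itgb1 (377.5, others 467.8 to 480.8). It had the highest neutrophil sum of the sex experiment, 50750 CPM. Female KO 3 was high for Itgav (198.3, others 167 to 175.6) and female KO 2 for Icam1 (155, others 116.4 to 122.2). WT ns 4 was low for Itgam (435.1, others 497.6 to 532.3).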

How the results depend on the processing

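No result of a member changed its direction across a call. Among results without a call, however, 205 had the other sign in an alternative. A call was lost in 21 alternative results and gained in 26. In 2008 both the sign and the presence or absence of a call were kept, and these include results never called. Shares in brackets are those of all genes called at the same setting. The number of members called with LPS in KO, 5 (28.3%), became 2 (14.6%) where a log2 change of at least 1 was also asked for. It became 3 (18.4%) without library number 4 and 0 (4.65%) in library set 2 alone. In WT the count of 3 (30.3%) became 0 (0%) with every library in its labelled group. It became 0 (3.62%) in set 2 alone and 1 (17.3%) without number 4. The WT count was 5 (42.6%) in set 1 alone and 5 (30.8%) where the summed pair entered as separate samples. It was 5 (36.3%) with no library of number 2 in any group and 6 (31.9%) without number 1. With choices made after the values were seen it was 5 (54.6%) without the libraries of high mitochondrial share. By the same kind of choice it was 5 (32.5%) without those in the labelled groups. It was also 5 (26.7%) without the libraries of high neutrophil markers. KO against WT in the sex experiment gave 1 member, Itgav, without the 2 animals of high neutrophil markers, averaged (0.969%) and in females (0.602%). KO against WT at ns, after LPS and in males, both interactions and the sexes gave 0 members in all alternatives run, and leaving out each animal in turn gave 0 to 0 members in the sex experiment.

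The number of all genes called ranged more widely: 756 to 8765 for LPS in KO, 0 to 8692 for LPS in WT, 1 to 58 for KO against WT at ns, 0 to 72 after LPS, 14 to 358 averaged over the sexes, 2 to 27 in males, 3 to 210 in females and 99 to 754 for female against male. The cause of these shifts was not tested.

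The deviations of samples that share a replicate number had a mean r of 0.00677 over 24 pairs in the sex experiment (lowest -0.478). Pairs of unlike number there had a mean r of -0.000769 (97 pairs, lowest -0.441). In the LPS experiment it was 0.166 over 38 pairs (lowest -0.211), against 0.00824 over 276 pairs of unlike number (lowest -0.558). Samples of like number were thus somewhat more alike in the LPS experiment. With the number as a replicate block, 0 members were called in the sex experiment. In the LPS experiment, with WT LPS 8 and 9 kept apart, 5 were called with LPS in KO (35% of all genes) and 6 in WT (39%). KO against WT at ns, after LPS and the interaction gave 0. Counting error weighs most on Itga4, the member of lowest level (down to 9.184 CPM), and samples varied biologically by a coefficient of 41% (LPS experiment) and 35.3% (sex experiment).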
